A study of Mus musculus with 2 samples.

Results

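Natural killer cells were taken from single-cell RNA sequencing libraries of mouse ovarian tumors. A cell was counted as a natural killer (NK) cell when it held 2 or more unique molecular identifiers (UMIs, each standing for 1 captured transcript) of the receptor genes Ncr1 and Klrb1c together, none of the CD3 chains Cd3d, Cd3e and Cd3g, none of the B cell gene Cd79a, and at most 4 of the macrophage complement genes C1qa, C1qb and C1qc. Members were thus chosen by their own UMIs of these 9 genes, whose levels are given below as a description. The rule found 427 NK cells among 15156 cells, or 2.82% of the cells kept. Of these, 217 came from the control IgG library and 210 from the Activin A neutralizing antibody library.

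Female C57BL/6 mice aged 6 to 8 weeks carried, in both groups, an abraded peritoneal wall, and had been given ovarian cancer cells of the same strain, p53-/- with myc and Hras, by intraperitoneal injection. From the day after cell injection, 7 mice received control IgG and 8 mice received the Activin A neutralizing antibody every day for 10 days, per the labels. The study's own text gives other numbers of mice and days for the single-cell experiment, and a later chemistry of the droplet kit. The tumors of each group were pooled into 1 library without a sort for any cell type, so each group is a single sample, no test between groups could be made, and the antibody cannot be told apart from any other difference between the libraries. All intervals below are 95% intervals for counting error only. They are too narrow for a gene whose UMIs lie in few cells.

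NK cells are innate lymphocytes that kill stressed, infected or transformed cells without a rearranged antigen receptor. Germline-encoded activating receptors and inhibitory receptors for MHC class I set whether they fire, and perforin and granzymes released from granules, or Fas ligand and TRAIL on the surface, kill the target. They also secrete interferon gamma and chemokines that draw dendritic cells and T cells. Activin A and TGFβ act through type I and type II receptors and SMAD2 and SMAD3, and TGFβ is known to restrain NK cells and to move them toward the resident state of group 1 innate lymphoid cells (ILC1).

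The promoters of Ncr1, used by the rule, and of Gzma, the granule gene with the most UMIs in these cells, are shown because they carry a binding motif of the RUNX factors, regulators of NK cell genes. For each gene 250 bases upstream were taken from RefSeq (GRCm38.p6). Those of Ncr1 end at position 4337714, short of its listed start at 4337724. Capitals mark TGTGGT or its reverse complement ACCACA. The Ncr1 promoter is at chr7:4337465-4337714 on the plus strand and the Gzma promoter at chr13:113100982-113101231 on the minus strand, each written 5′ to 3′.
Ncr1: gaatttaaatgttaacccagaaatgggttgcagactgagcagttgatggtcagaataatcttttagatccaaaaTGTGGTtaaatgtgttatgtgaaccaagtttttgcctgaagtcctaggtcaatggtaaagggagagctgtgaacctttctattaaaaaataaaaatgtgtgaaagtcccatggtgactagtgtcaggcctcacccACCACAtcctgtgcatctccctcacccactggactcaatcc
Gzma: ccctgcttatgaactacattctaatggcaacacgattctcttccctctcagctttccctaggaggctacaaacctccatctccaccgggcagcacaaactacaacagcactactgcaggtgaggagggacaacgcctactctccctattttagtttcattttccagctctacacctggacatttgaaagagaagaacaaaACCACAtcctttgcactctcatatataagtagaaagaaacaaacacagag
TGTGGT, searched on both strands, was in 3832 of 27025 promoters of this length (14.2%). It was in 7 of 17 promoters of activating receptor and adaptor genes (41.2%), in 13 of 20 of granule and death ligand genes (65%), in 6 of 11 of inhibitory receptor genes (54.5%) and in 1 of 11 of Ly49 genes (9.09%). Gzmb to Gzmg are near-copies in tandem and are not independent. A match describes letters only, since binding was not measured.

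Markers that the rule did not use set the members apart from CD8 T cells and from cells without a UMI of Ncr1 or Klrb1c. Neither comparison separates NK cells from ILC1. The rule left out no cell for an ILC1 gene, and members with ILC1 marker UMIs are described below. Whether those members are ILC1 was not tested. Klra8, the activating receptor Ly49H, was at 778 CPM (counts per 1000000 UMIs, interval 724 to 834) in the NK cells of the control IgG library and 742 (685 to 802) in those of the antibody library. In CD8 T cells it was at 0.178 and 0.479 CPM. CD8 T cells were cells with 2 or more CD3 and 2 or more Cd8a and Cd8b1 UMIs and none of Ncr1 and Klrb1c, 2826 and 2206 cells. Gzma, the granule protease granzyme A, was at 6893 and 6715 CPM in NK cells against 1102 and 592 in CD8 T cells. Klre1, a lectin-like receptor, was at 648 and 643 CPM against 19.2 and 19.1. A Gzma UMI was found in 86.2% and 84.8% of the NK cells, and a Klre1 UMI in 84.3% and 86.7%. In 1207 and 1149 cells without a UMI of Ncr1, Klrb1c, the CD3 chains or Cd79a, and with at most 4 of C1q, which were deeper (median 7078 and 7013 UMIs per cell against 3518 and 3310.5 in NK cells), these shares were 8.53% and 6.44% for Gzma and 4.31% and 6.01% for Klre1.

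The genes of the rule were high by construction. Ncr1, the activating receptor NKp46, was at 544 CPM in the control IgG library and 421 in the antibody library, and Klrb1c, the NK1.1 antigen, at 606 and 664. Of the cells with 2 or more UMIs of these genes, 384 and 339 in number, the CD3 criterion removed 165 and 126, Cd79a 1 and 2, and C1q 1 and 1. Close to the threshold, 42 and 56 members held exactly 2 UMIs of Ncr1 and Klrb1c, and 54 and 88 otherwise matching cells just outside held 1. Klra8 was at 832 and 674 CPM in the cells with 2 UMIs and at 172 and 211 CPM in those with 1, and Gzma at 5180 and 3544 against 1006 and 1973. The cells just outside thus held levels of both genes below those of the members and far above the 2.26 and 7.59 CPM of Klra8 in cells with none. No barcode of an NK cell was found in both libraries, although 19 barcodes of kept cells were.

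NK cells made up 2.47% (2.16 to 2.82) of the 8770 kept cells of the control IgG library and 3.29% (2.86 to 3.76) of the 6386 of the antibody library. The log2 ratio of the shares, antibody over control IgG, was 0.41 (0.13 to 0.69), and 1.27 among the 88 NK cells without a UMI of Trac, Trbc1 or Trbc2. Among lymphocytes, counted as the NK cells and the cells with 2 or more UMIs of CD3 chains or of Cd79a, the shares were 3.68% and 4.65%, with a log2 ratio of 0.34 (0.06 to 0.62). A share moves with every other cell type in the library, so more NK cells and fewer other cells cannot be told apart here. The NK cells were similar in depth, with medians of 3518 and 3310.5 UMIs and 1731 and 1674.5 genes, and held a median of 2.89% and 2.09% mitochondrial UMIs.

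Against CD8 T cells, the NK cells held more of many receptor and adaptor genes of innate killers and less of several genes of the T cell receptor pathway, while Trbc1 of the beta chain was level. Of 12379 genes, 707 (5.71%) were at least 2-fold higher in NK cells in both libraries and 1092 (8.82%) at least 2-fold lower, the rule's genes left out. Of the activating receptor and adaptor genes, 9 of 19 compared were 2-fold higher and 1 lower. Fcer1g and Tyrobp, adaptors that carry the signal of activating receptors, were at 2088 and 1807 CPM in the control IgG library against 53.3 and 33.6 in CD8 T cells, and at 1984 and 1715 against 46.5 and 33.4 in the antibody library. Klrk1, which encodes NKG2D, was at 699 and 629 CPM against 90.0 and 77.6. Eomes, a transcription factor of NK cells, was at 125 and 204 CPM against 15.9 and 22.1. Itga2, the integrin CD49b, was at 232 and 262 CPM against 11.95 and 10.3. Among the 20 genes with the largest ratio were also Klra4, Klra9, Klrb1a, Klrb1b and Klri2 of the lectin-like receptor family, Sh2d1b1 and Clnk, adaptors of receptor signaling, and Serpinb9b, a protease inhibitor. Eya1, Angpt1, Phactr3, Aoah and Cma1 stood there too. Cma1 encodes a mast cell protease, and was at 75.2 and 70.4 CPM in NK cells while the mast cell and basophil genes Mcpt4, Mcpt8 and Fcer1a had no UMI and Cpa3 had none in the control IgG library and 2 in the antibody library.

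Among the 10 lowest genes against CD8 T cells were Themis, Cd6 and Cd5, regulators of T cell receptor signaling, and Bcl11b, a T cell transcription factor. Themis was at 5.02 and 1.17 CPM in NK cells against 942 and 905 in CD8 T cells. Bcl11b was at 13.0 and 9.39 CPM in NK cells against 340 and 394 in CD8 T cells, and Trac, the constant region of the T cell receptor alpha chain, at 24.1 and 15.3 against 530 and 535. The beta chain genes differed from each other. Trbc1 was at 358 and 335 CPM in NK cells, close to the 346 and 338 of CD8 T cells, with a UMI in 74.7% and 63.3% of the NK cells. Trbc2 was at 295 and 216 CPM against 1254 and 1196. Trdc, of the delta chain, was at 48.2 and 54.0 CPM against 3.21 and 5.61. Requiring no UMI of Trac, Trbc1 or Trbc2 left 88 of the 427 cells. T cells with 2 or more CD3 UMIs and 2 or more Ncr1 and Klrb1c UMIs, 133 and 98 cells, lay between the NK cells and the CD8 T cells for Klra8 (95.8 and 290 CPM), Fcer1g (777 and 989 CPM), Eomes (50.02 and 58.7 CPM) and Trac (216 and 176 CPM).

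**Figure D1:**
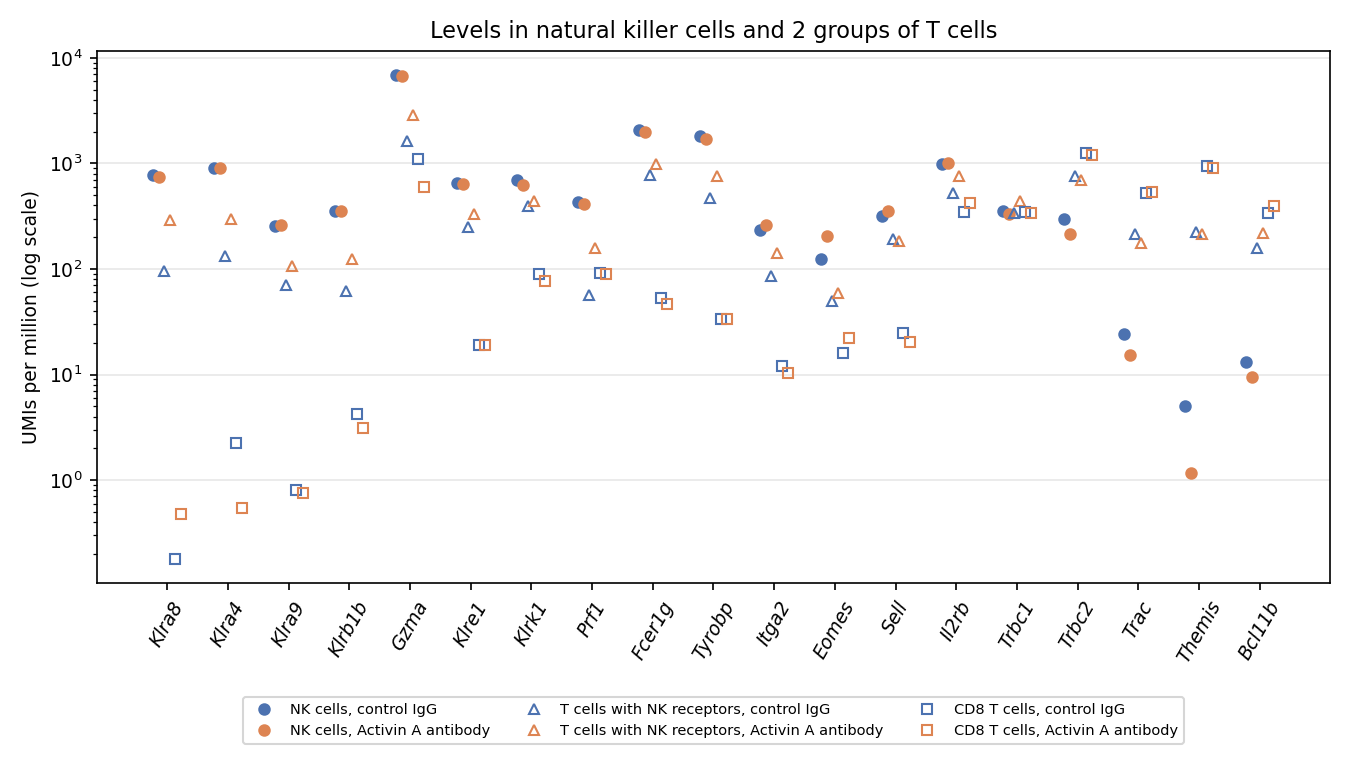
Levels of 19 genes in CPM on a log axis, with filled circles for NK cells, triangles for T cells carrying NK receptors and squares for CD8 T cells, blue for control IgG and orange for the antibody. The receptor, adaptor and granule genes on the left were highest in NK cells, Trbc1 was level across the groups, and Trac, Themis and Bcl11b were lowest in NK cells.

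Markers of B cells, macrophages, neutrophils, dendritic cells and fibroblasts were below their level in free RNA. Free RNA was taken as only 3.48% and 3.13% of the UMIs of NK cells, so such a level can still exceed what free RNA adds. These shares were scaled from only 1 and 2 haemoglobin UMIs in the NK cells and are rough. Taken as exact, they would add less than the macrophage, fibroblast and dendritic cell sums given here in both libraries. With so few haemoglobin UMIs, whether these sums were above what free RNA adds is not settled. The B cell gene Cd79b had 1 and 3 UMIs. Ms4a1 of B cells, Il17a, Il22 and Il23r of ILC3 and Il5 and Il13 of ILC2 had none. The interval for a gene without a UMI reaches 3.70 CPM in the control IgG library and 4.33 in the antibody library. The 6 macrophage markers C1qa, C1qb, C1qc, Csf1r, Adgre1 and Lyz2 summed to 85.3 and 161 CPM, against 2024 and 1187 CPM in barcodes under 100 UMIs, which hold free RNA. The rule caps the C1q genes together at 4 UMIs per cell, so their part of this sum is low by construction. Lyz2, which the rule does not use, held the most of these UMIs. It was at 53.2 and 151 CPM, against 907 and 725 in free RNA. C1qc had no UMI in the antibody library. The 4 neutrophil markers summed to 6.02 and 15.3 CPM, and the 3 fibroblast markers to 33.1 and 99.8 CPM. H2-Aa, an MHC class II gene of antigen-presenting cells, had a UMI in 21.2% of the NK cells of the control IgG library and 3.33% of those of the antibody library, and 1 cell in each library held 85 of its 187 and 115 of its 133 UMIs. The 8 dendritic cell genes, H2-Aa among them, summed to 824 and 709 CPM in NK cells against 4213 and 2368 CPM in free RNA. Without the NK cells that held 2 or more UMIs of other lineages' genes, 44 genes were 2-fold higher and 48 lower with the antibody, and the ratios of 14 of 236 genes moved past their counting interval and that of Dcn turned. With the expected free RNA subtracted, 44 were higher and 37 lower, and 3 ratios moved. The unfiltered counts are given below.

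The Ly49 family, encoded by the Klra genes in 1 cluster on chromosome 6, binds MHC class I and is switched on in a mosaic, so that each NK cell carries its own set. Of 9 Ly49 genes, the NK cells showed a median of 2 in the control IgG library and 2.5 in the antibody library, and 81.6% and 85.2% held a UMI of at least 1. Klra7, the inhibitory receptor Ly49G, was found in 51.6% and 58.1% of the NK cells, Klra8 in 49.3% and 49.5%, Klra4, the activating receptor Ly49D, in 45.2% and 48.6%, and Klra9 in 37.8% and 35.7%. Klra3, or Ly49C, was found in 18.4% and 19.0%, and Klra1, or Ly49A, in 16.6% and 11.9%. Klra4 and Klra8 were found together in 71 and 67 cells, Klra4 without Klra8 in 27 and 35, Klra8 without Klra4 in 36 and 37, and neither in 83 and 71. A transcript can go uncaptured at this depth, and free RNA or doublets can add one. Klra4 was found in 3.73% and 7.22%, and Klra8 in 0.663% and 1.74%, of the cells described above without a UMI of Ncr1, Klrb1c, the CD3 chains or Cd79a. Those cells can include NK cells whose Ncr1 and Klrb1c went uncaptured, and the source of these UMIs was not tested. The genes are alike in sequence: of 91-base windows in the last 600 bases of their transcripts, 11.96% of those of Klra10 and 10.2% of those of Klra9 were shared with another Ly49 gene, 4.90% of Klra7, 4.23% of Klra3, 3.14% of Klra8, and 0% of Klra1, Klra4, Klra5 and Klra6.

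**Figure D2:**
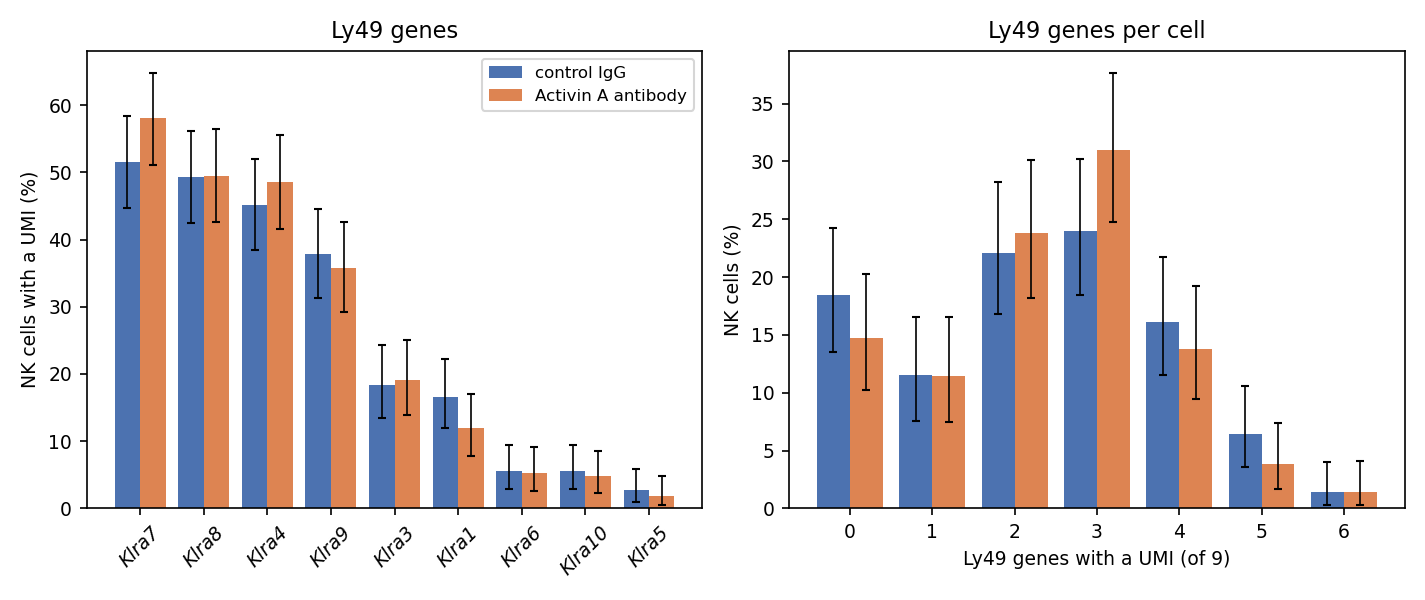
Left, percent of NK cells with a UMI of each of 9 Ly49 genes. Right, percent of NK cells by the number of these genes found. Bars are blue for control IgG (217 cells) and orange for the antibody (210 cells), with exact binomial 95% intervals, which overlap between the libraries for every gene and every number.

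The promoters of Klra4 and Klra8 are shown because these activating receptors rank among the genes that most set NK cells apart from CD8 T cells and because their promoters are close copies. They lie at chr6:130067272-130067521 and chr6:130129899-130130148, both on the minus strand (RefSeq, GRCm38.p6). Capitals mark runs of 16 or more bases found in both. Of 251 aligned positions, 212 (84.5%) were identical.
Klra4: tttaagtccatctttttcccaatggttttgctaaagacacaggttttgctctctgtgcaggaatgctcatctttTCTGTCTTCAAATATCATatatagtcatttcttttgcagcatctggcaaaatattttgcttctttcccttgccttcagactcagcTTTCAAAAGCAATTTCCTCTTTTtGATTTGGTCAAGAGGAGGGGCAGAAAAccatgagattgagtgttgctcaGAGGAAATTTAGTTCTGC
Klra8: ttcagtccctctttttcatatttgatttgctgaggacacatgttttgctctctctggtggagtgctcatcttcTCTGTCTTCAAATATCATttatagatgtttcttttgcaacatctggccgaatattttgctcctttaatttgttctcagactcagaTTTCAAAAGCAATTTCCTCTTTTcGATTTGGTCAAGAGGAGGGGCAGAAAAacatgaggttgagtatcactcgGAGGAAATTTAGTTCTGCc
In the NK cells Klra4 was at 915 CPM (857 to 976) in the control IgG library and 908 (845 to 974) in the antibody library, a log2 ratio of -0.01 (-0.15 to 0.13). For Klra8 this ratio was -0.07 (-0.22 to 0.09). The log2 ratios of the 6 Ly49 genes with 50 or more UMIs ran from -0.43 for Klra1 to 0.26 for Klra7.

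Between the antibody and control IgG libraries, the sums over NK cells were close. Of 5497 genes with 50 or more UMIs, 49 (0.891%) were at least 2-fold higher with the antibody and 37 (0.673%) at least 2-fold lower, 1.56% in all. The median log2 ratio was 0.04, with quartiles of -0.18 and 0.25. In CD8 T cells, with many more UMIs, 18 of the same genes (0.327%) passed 2-fold. Of the 86 genes, 35 of the 49 and 29 of the 37 had fewer than 100 UMIs over both libraries, and 6 were also 2-fold the same way in CD8 T cells. Among the 1744 genes with 200 or more UMIs, 2 were 2-fold higher and 4 lower. With the rule's genes left out, 3038 of 5495 genes were above 0 on the log2 scale and 2457 below. Among NK cells without an ILC1 marker UMI, 3028 of 5486 were above 0 and 2458 below. Counts above and below 0 for the gene lists that follow are to be read beside these.

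When each gene's top cell in each library was left out, 44 genes (0.8%) were 2-fold higher and 48 (0.873%) lower. In 9 of the 86 genes, 1 cell held over 50% of the UMIs of the higher library. The largest ratio was that of Gsn, which encodes the actin-severing protein gelsolin, with 9 UMIs in the control IgG library and 141 in the antibody library, 129 of them in 1 cell. The same cell held 52 of the 58 UMIs of Igfbp6 and 49 of the 51 UMIs of the fibroblast gene Dcn, with 24 UMIs of Col3a1 and 12269 UMIs in all. It held 2 UMIs of Klrb1c, none of Ncr1, 39 of Gzma and 11 of Tyrobp. Without the top cell of each library, the log2 ratio of Gsn went from 4.20 to 1.00 and that of Dcn from 3.58 to -0.77. Single cells likewise held 67 of 91 UMIs of Fabp5, 235 of 392 of Cst3 and 76 of 129 of Lyz2 in the antibody library. Lyz2 is a macrophage gene, and Cst3 is high in dendritic cells.

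In the other genes past 2-fold no cell held that much. Taco1, a mitochondrial translation factor, went from 23.1 to 85.7 CPM (log2 ratio 1.89, 1.20 to 2.64) and was found in 9.68% and 25.7% of the NK cells. Its log2 ratio was 0.82 (0.66 to 0.99) in CD8 T cells, and in free RNA it was at 8.12 and 37.9 CPM. Nr4a3, an orphan nuclear receptor induced by activation, was at 32.1 CPM (22.0 to 45.3) in the control IgG library and 82.2 (64.1 to 104) in the antibody library, a log2 ratio of 1.36 (0.73 to 2.01), with a UMI in 9.68% and 19.5% of the cells. Its ratio was 0.91 (0.77 to 1.05) in CD8 T cells. Gm10076 was lower with the antibody, 704 against 254 CPM (log2 ratio -1.47, -1.70 to -1.25), as it was in CD8 T cells with a ratio of -1.10. Ifitm1, an interferon-induced membrane protein, had the smallest ratio, -4.17 (-5.40 to -3.15), from 168 UMIs in 24 cells to 8 UMIs in 5 cells. Of the 168 UMIs, 143 lay in 5 cells, and with a threshold of 1 UMI of Ncr1 and Klrb1c its log2 ratio was 0.34.

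**Figure D3:**
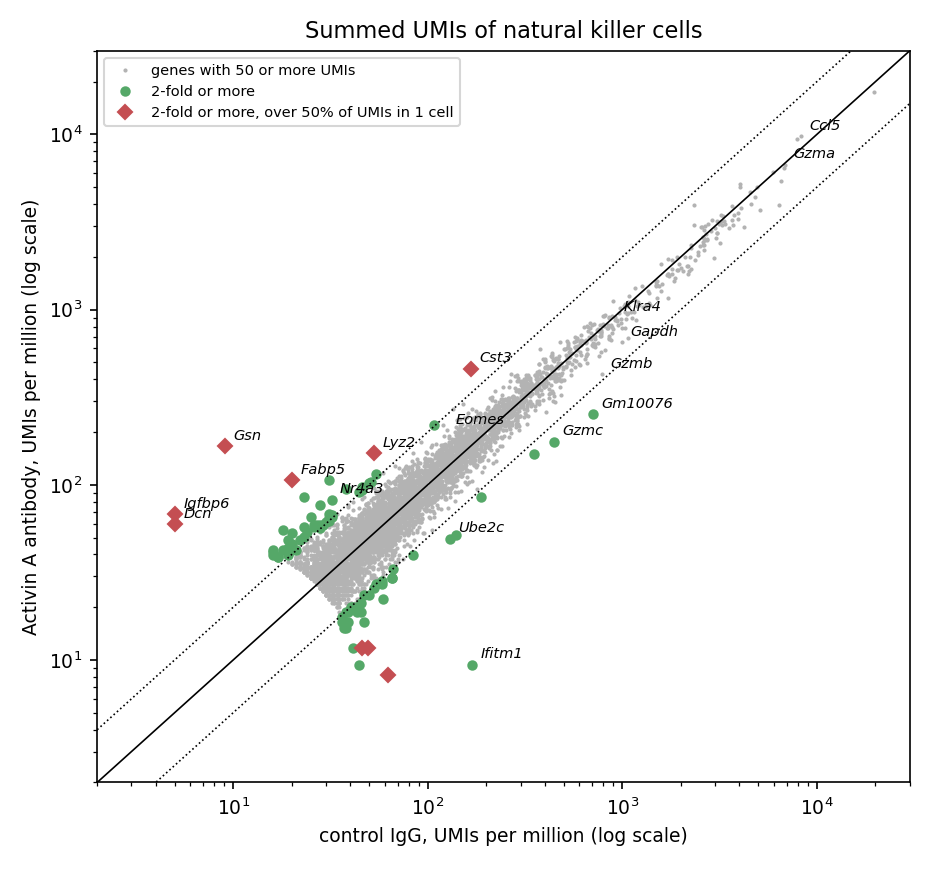
Summed levels of 5497 genes in the NK cells of both libraries, in CPM on log axes, with the line of equality and dotted lines at 2-fold (genes without a UMI in 1 library are not drawn). Green points passed 2-fold and red diamonds are the 9 genes among them with over 50% of the higher library's UMIs in 1 cell, Gsn, Igfbp6 and Dcn among them.

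The killing genes were at similar levels apart from some granzymes. Of 16 granule and death ligand genes with enough UMIs, none was 2-fold higher and 1, Gzmc, was 2-fold lower, against 0.891% and 0.673% of all genes. On this list 12 of 16 were below 0 on the log2 scale, and the median was -0.11, against 0.04 over all genes. Among NK cells without an ILC1 marker UMI, 9 of 15 were above 0, with a median of 0.03. For Gzma the log2 ratio was -0.04 (-0.09 to 0.01), while in CD8 T cells it was -0.90 (-0.93 to -0.86). That the ratios differed between the cell types could not be tested with 1 library per group. Prf1, which encodes perforin, was at 427 and 412 CPM, with a log2 ratio of -0.05 (-0.26 to 0.15). Gzmb, granzyme B, was at 784 CPM (730 to 841) in the control IgG library and 426 (383 to 472) in the antibody library, a log2 ratio of -0.88 (-1.06 to -0.70). It was found in the same share of NK cells, 41.9% and 41.9%. A single cell of the control IgG library held 195 of its 781 UMIs. Without the top cell of each library the ratio was -0.71, and among NK cells without an ILC1 marker UMI it was -0.19. Gzmc had 443 and 150 UMIs, in 16 and 10 cells, of which 217 and 129 lay in 1 cell each. Its log2 ratio of -1.34 was -3.20 without the top cell of each library. It turned to 0.16 among NK cells without an ILC1 marker UMI and to 1.01 with at least 1 UMI of each receptor gene. Fasl, Fas ligand, was at 111 and 150 CPM, with a log2 ratio of 0.43 (0.05 to 0.81).

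Of the activating receptor and adaptor genes none differed by 2-fold, where 1.56% of all genes did. With Ncr1 and Klrb1c left out, 15 of 18 genes were below 0, with a median log2 ratio of -0.15, against 0.04 over all genes and 0.06 for these 18 in CD8 T cells. Among NK cells without an ILC1 marker UMI, 14 of 18 were below 0, with a median of -0.19, and 1, Cd226, was 2-fold lower, where 109 of 5486 genes (1.99%) were 2-fold lower and 129 (2.35%) higher in these cells. Cd226, or DNAM-1, a receptor for nectin-like ligands on tumor cells, was at 296 CPM (263 to 332) and 204 (175 to 237), a log2 ratio of -0.53 (-0.81 to -0.26), and was found in 42.4% and 26.2% of the cells. After each cell was thinned to 2000 UMIs, leaving out 7 and 15 shallower cells, these shares were 30.9% and 19.2%. Its log2 ratio was -1.29 among NK cells without an ILC1 marker UMI. For Klrk1 the ratio was -0.15 (-0.32 to 0.01), for Tyrobp -0.08 (-0.18 to 0.03) and for Fcer1g -0.07 (-0.17 to 0.02). Among 10 inhibitory receptor genes, 8 were below 0 and none passed 2-fold, with a median of -0.08. In the NK cells without an ILC1 marker UMI 8 of these were below 0, with a median of -0.19. There Lag3 was 2-fold higher, at 1.33 in place of 0.63, where 2.35% of all genes were. Klrd1, or CD94, the partner of the NKG2 receptors, was at 1177 and 877 CPM, with a log2 ratio of -0.42 (-0.56 to -0.29). Klrg1, a marker of late maturation, was at 137 and 81.0 CPM, with a ratio of -0.76 (-1.20 to -0.34), against -0.99 in CD8 T cells. Among NK cells without an ILC1 marker UMI the Klrg1 ratio was 0.05.

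Of 20 transcription factor genes, Nr4a3 alone passed 2-fold, where 0.891% of all genes were 2-fold higher. Their median log2 ratio was 0.26, with 15 above 0, against 0.04 over all genes in NK cells and 0.35 for the same genes in CD8 T cells. Eomes, which with Tbx21 directs NK cell development and effector genes, was at 125 CPM (104 to 149) in the control IgG library and 204 (175 to 237) in the antibody library, a log2 ratio of 0.70 (0.36 to 1.05). Its share of cells with a UMI was 37.8% and 44.3%, or 24.6% and 32.6% after thinning. Tbx21, or T-bet, was at 289 and 425 CPM, a log2 ratio of 0.56 (0.33 to 0.78), in 59.0% and 72.4% of the cells. In CD8 T cells the ratios were 0.48 for Eomes and 0.38 for Tbx21. Across the other definitions of an NK cell and scalings tried, the Eomes ratio ran from 0.57 to 1.17 and that of Tbx21 from 0.04 to 0.61, the extremes 1.17 and 0.04 being those of the 88 cells without T cell receptor constant chain UMIs.

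Secreted factors went both ways. Of 8 cytokine and chemokine genes, 4 were above and 4 below 0, none by 2-fold, where 1.56% of all genes passed it. Ccl5, a chemokine for T cells and among the genes with the most UMIs in NK cells, was at 8287 and 9732 CPM, with a log2 ratio of 0.23 (0.19 to 0.28), and 0.21 in CD8 T cells. Xcl1, which attracts cross-presenting dendritic cells, was at 452 and 298 CPM, with a ratio of -0.60 (-0.83 to -0.38). Ifng was at 165 and 120 CPM, with a ratio of -0.46 (-0.83 to -0.09), against 0.15 in CD8 T cells, and at a ratio of -0.10 among NK cells without an ILC1 marker UMI. Cytokine receptors, 12 genes, and homing receptors and integrins, 15 genes, had medians of 0.03 and 0.01, with none past 2-fold, again beside 1.56% of all genes. Il2rb, the shared receptor chain for IL-2 and IL-15, was at 978 and 1018 CPM.

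The pathway that the antibody targets was present in the NK cells mainly on the receiving side. Inhba and Inhbb, which encode the subunits of the activins, had no UMI, and neither did the receptors Acvr2b and Acvr1c. The type II activin receptor Acvr2a was at 42.1 CPM (30.4 to 57.0) in the control IgG library and 57.5 (42.6 to 76.1) in the antibody library, above the 8.70 and 4.92 CPM of CD8 T cells, with a log2 ratio between libraries of 0.45 (-0.18 to 1.08). In the T cells carrying NK receptors Acvr2a was at 35.1 and 49.6 CPM, close to the level in NK cells. The type I receptor Acvr1b had 7 and 8 UMIs. Tgfbr2, the type II receptor for TGFβ, was at 134 and 158 CPM and Smad3 at 204 and 218 CPM. The list of 16 genes of the pathway with enough UMIs held receptors, SMADs, regulators and the ligand gene Tgfb1, which had a log2 ratio of 0.22. Of these 16, 15 were above 0 with the antibody and 1 below. Their median log2 ratio was 0.34, against 0.09 in CD8 T cells and 0.04 over all genes in NK cells. Among NK cells without an ILC1 marker UMI, 10 were above 0 and 6 below, with a median of 0.10, against 0.05 over all genes. Smad5, a SMAD of the bone morphogenetic protein branch, was the one gene of the 16 that was 2-fold higher, where 0.891% of all genes were, 19.1 against 39.9 CPM (log2 ratio 1.07, 0.22 to 1.96). The Smad5 ratio was 0.72 with a threshold of 1 UMI of Ncr1 and Klrb1c and 0.93 with the mean of per-cell CPM. Ski, a repressor of SMAD signaling, was at 53.2 and 96.3 CPM, with a ratio of 0.86 (0.34 to 1.38), and 0.43 in CD8 T cells. Smad7, a feedback target of the pathway, had a ratio of 0.20 (-0.16 to 0.57).

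**Figure D4:**
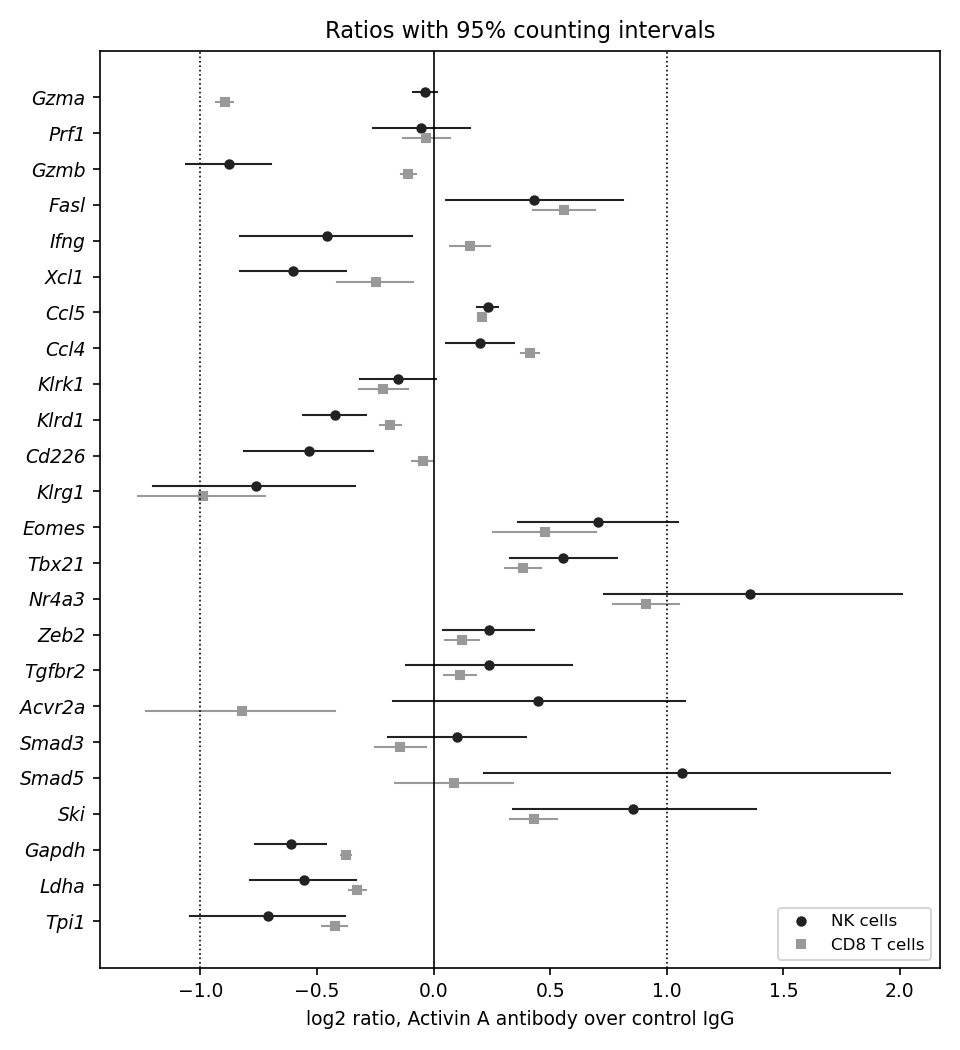
Log2 ratios, antibody over control IgG, with 95% counting intervals for 24 genes, black for NK cells and gray for CD8 T cells, with dotted lines at 2-fold. Gzma was near 0 in NK cells and at -0.90 in CD8 T cells, Gzmb was at -0.88 and -0.11, and Eomes, Tbx21 and Nr4a3 were above 0 in both.

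The glycolysis and interferon genes had medians close to those of CD8 T cells. Of 13 glycolysis and hypoxia genes, 10 were below 0, with a median log2 ratio of -0.32 in both cell types. Among NK cells without an ILC1 marker UMI, 7 were above 0 and 6 below, with a median of 0.01. Gapdh, a glycolytic enzyme, was at 992 CPM (931 to 1056) and 649 (596 to 706), with a ratio of -0.61 (-0.76 to -0.46), and -0.38 in CD8 T cells. With a threshold of 1 UMI of Ncr1 and Klrb1c, the Gapdh ratio was 0.10. Of 12 interferon-stimulated genes, 9 were above 0, with a median of 0.37 in NK cells and 0.42 in CD8 T cells, and Gbp2 and Ifi27l2a were 2-fold higher, against 0.891% of all genes. Of the 91 UMIs of Ifi27l2a in the antibody library, 76 lay in 5 cells. Among NK cells without an ILC1 marker UMI, the log2 ratios of Ifi27l2a and Gbp2 were 0.07 and 0.62, and 6 of the 12 genes were above 0 and 6 below, with a median of -0.10. Isg15 and Stat2 were 2-fold lower in these cells, at -1.54 and -1.04, where 1.99% of all genes were. In all NK cells their ratios were 0.34 and -0.89. With a threshold of 1 UMI of Ncr1 and Klrb1c the Gbp2 ratio was 0.08. Of 18 immediate-early and heat shock genes, Hsph1, a chaperone, was 2-fold higher with a log2 ratio of 1.02 (0.48 to 1.58), against 0.891% of all genes, and the median was 0.08, against 0.34 in CD8 T cells. The Hsph1 ratio was 0.55 with the mean of per-cell CPM and 0.94 among NK cells without an ILC1 marker UMI.

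Few NK cells were dividing. Cells with 8 or more UMIs of 10 division genes numbered 14 in the control IgG library, or 6.45% (3.57 to 10.6), and 10 in the antibody library, or 4.76% (2.31 to 8.58). In CD8 T cells, which were deeper with medians of 5817 and 4937 UMIs, these shares were 30.1% and 23.8%. On the CPM scale, where deeper cells weigh more, 22 division genes summed to 3361 and 2936 CPM in NK cells and to 7244 and 6284 in CD8 T cells. In free RNA these genes summed to 2649 and 3238 CPM. The dividing NK cells were deep, with medians of 12164 and 13921 UMIs, and held 94.2% and 90.4% of the UMIs that NK cells had of the 10 genes which defined them, a share that the definition sets in part. Of 20 division genes, 8 were above and 12 below 0, with a median of -0.18. Among NK cells without an ILC1 marker UMI 17 were above and 3 below, with a median of 0.80. There 7 of the 20 were 2-fold higher, against 2.35% of all genes, with 1 and 4 dividing cells. In all NK cells Ube2c, which drives exit from mitosis, was the one of the 20 that was 2-fold lower, where 0.673% of all genes were. It was at 130 and 49.3 CPM, and without cells over 2 times the median depth its log2 ratio was 1.65 in place of -1.40. Among maturation genes, Cd27, of younger NK cells, and Itgam, or CD11b, of mature ones, were found together in 27 and 17 cells, Cd27 alone in 24 and 27, Itgam alone in 68 and 77, and neither in 98 and 89. The 12 maturation genes with enough UMIs had a median log2 ratio of 0.01.

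The NK cells were not uniform. Since the rule used no ILC1 marker, they can include ILC1, and whether they do was not tested. Summed UMIs of 8 ILC1 marker genes (Itga1, Cd200r1, Cxcr6, Il7r, Tnfsf10, Zfp683, Tmem176a and Tmem176b), which include the integrin CD49a, the IL-7 receptor and TRAIL, were 0 in 142 and 137 cells and 3 or more in 44 and 34 cells. The 8 genes summed to 497 and 411 CPM in NK cells, against 350 and 423 CPM in free RNA. Free RNA was taken as 3.48% and 3.13% of the UMIs of NK cells, and at that share would add less than either sum. The share is rough, since it rests on 1 and 2 haemoglobin UMIs. The part of free RNA in cells with 1 or 2 marker UMIs was not tested. The limit of 3 UMIs, and the genes named from this division of the cells, were chosen after the values were seen. Cells with 3 or more made up 20.3% (15.1 to 26.2) and 16.2% (11.5 to 21.9) of the NK cells, a log2 ratio of -0.32 (-1.01 to 0.35), and they were deeper, with medians of 7003.5 and 4338 UMIs against 3327 and 3009. Dividing cells numbered 11 of the 44 and 5 of the 34, against 1 of the 142 and 4 of the 137. When the limit was set on the rate, at 5 or more marker UMIs per 10000 UMIs of the cell and at least 2 UMIs, it took 38 and 41 cells, of which 4 and 4 were dividing. Of 9 genes of ILC1 and of tissue residency with enough UMIs, Inpp4b and Gpr183 were 2-fold higher with the antibody, against 0.891% of all genes, 6 were below 0, and the median log2 ratio was -0.15. Inpp4b was at 107 and 218 CPM, with a log2 ratio of 1.02 (0.67 to 1.38), and Gpr183, a receptor for oxysterols, at 25.1 and 65.7 CPM, with a ratio of 1.39 (0.69 to 2.13). Without the cells holding an ILC1 marker UMI these ratios were -0.06 and 0.90. Cells with 3 or more marker UMIs were then compared with cells with none. Of 4932 genes, the marker genes left out, 101 (2.05%) were at least 2-fold higher in the cells with 3 or more in both libraries and 120 (2.43%) lower.

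The cells with ILC1 markers held low levels of Eomes, 28.5 and 29.1 CPM, against 198 and 314 in the cells with none, while Tbx21 was at 257 and 383 CPM against 330.1 and 472. The same cells were low in Itga2 (22.8 and 87.2 CPM against 361 and 336), in Klra4 (25.7 and 165 CPM against 1421 and 1292), in Klra8 (99.8 and 252 CPM against 1175 and 986) and in Itgam (48.5 and 58.1 CPM against 245 and 256). Zeb2, a repressor that directs terminal maturation, was at 143 and 116 CPM against 647 and 719. Among effectors, Gzma was at 3865 and 2600 CPM against 8261 and 8959, Ccl5 at 2566 and 3167 CPM against 12686 and 13187, and Fasl at 39.9 and 38.7 CPM against 159 and 208. All of these genes were lower in both libraries with ILC1 markers present. With the limit set on the rate Klra4 was at 114 and 210 CPM.

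Higher in the cells with ILC1 markers were Rora, a nuclear receptor of innate lymphoid cells (373 and 344 CPM against 71.8 and 75.8), Ikzf2, or Helios (251 and 383 CPM against 42.7 and 71.5), Kit, the stem cell factor receptor (85.5 and 194 CPM against 15.5 and 17.3), Ly6a (556 and 460 CPM against 48.5 and 82.3) and Xcl1 (738 and 547 CPM against 334 and 180). St6galnac3, a sialyltransferase gene, was at 881 and 1670 CPM against 97.1 and 147, and Inpp4b, a phosphoinositide phosphatase gene, at 234 and 721 against 40.8 and 39.0. Gzmc was at 1123 and 697 CPM against 3.88 and 4.33, with the single cells named above. With the limit set on the rate Gzmc was at 619 and 69.9 CPM. Tcrg-C4, of the T cell receptor gamma chain, was at 119.7 and 82.3 CPM against 1.94 and 0, with a UMI in 50% and 32.4% of the cells with ILC1 markers, while Trdc was at 28.5 and 4.84 CPM against 62.1 and 86.7. Camk4 and Ctla4, both known from T cells, were at 262 and 344 and at 119.7 and 116 CPM against 27.2 and 47.7 and 23.3 and 17.3. Division genes such as Ube2c (308 and 155 CPM against 27.2 and 15.2) and Birc5 (219 and 213 CPM against 21.4 and 36.8) were also higher. Some genes hardly differed. Il2rb was at 1026 and 1012 CPM against 971 and 1058, and Klrd1 at 1209 and 857 CPM against 1165 and 880.

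**Figure D5:**
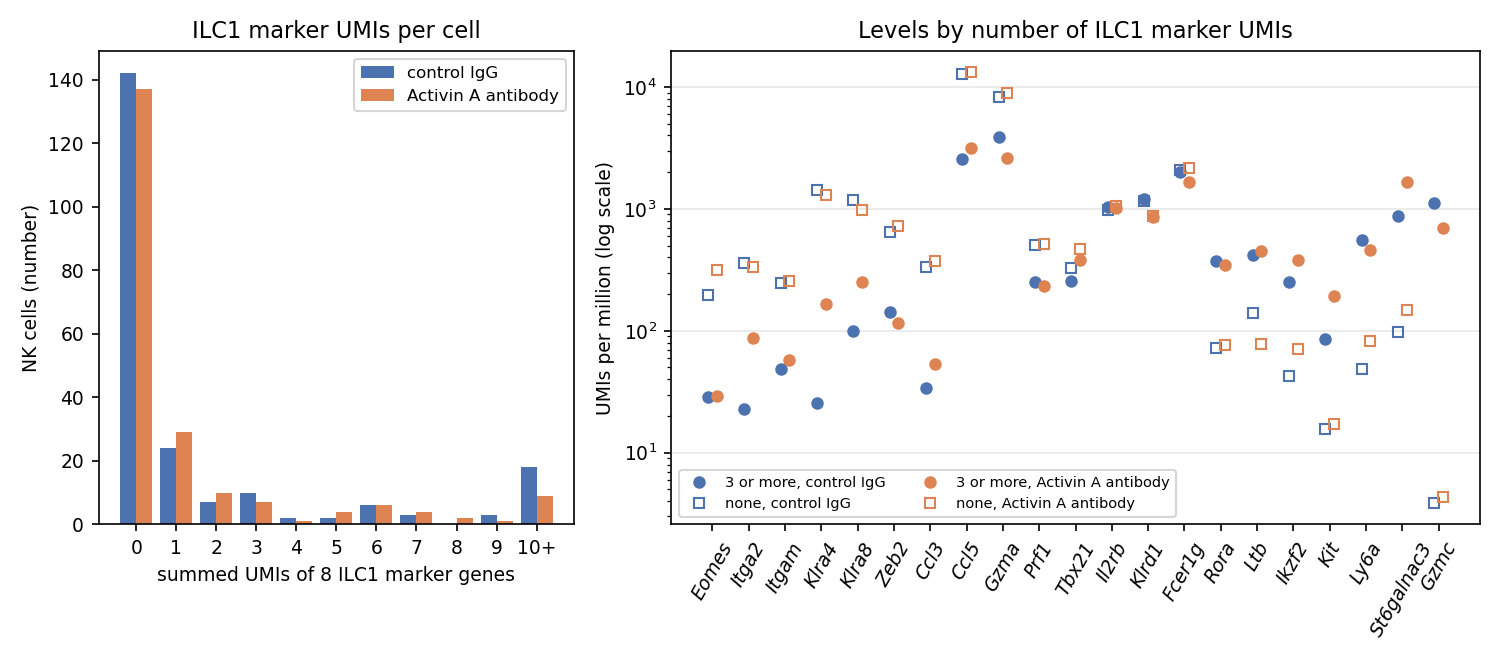
Left, number of NK cells by their summed UMIs of 8 ILC1 marker genes, blue for control IgG and orange for the antibody. Right, levels of 21 genes in CPM on a log axis in NK cells with 3 or more of these UMIs (filled circles) and with none (open squares), where Eomes, Itga2, Klra4 and Zeb2 were lower and Rora, Ikzf2, Kit and Gzmc higher in the filled circles of both libraries.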

How the data were processed

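Per the labels, single cells of pooled tumors were made into droplet 3′ libraries. The deposited count matrices held raw UMI counts per gene and barcode, made by the authors with Cell Ranger, which was version 4 per the file headers and 7.0.1 per the submitters' notes, on mm10. A barcode was kept as a cell if it held between 1000 and 8500 genes, between 1000 and 100000 UMIs, and no more than 10% of UMIs from mitochondrial genes. Doublets were not removed. Counts were summed over the cells of a type and divided by their total to give CPM. The counts come from transcript ends and are not scaled by length, so ranks of genes by UMIs are not ranks of transcript number. Genes with 50 or more UMIs and a unique symbol were compared. With 1 library per group no test was run, and called means a 2-fold ratio of sums. Shares had Clopper-Pearson intervals, CPM values exact Poisson intervals and ratios conditional binomial intervals. Named genes were those of fixed lists, the 15 largest and 15 smallest ratios, the 20 highest and 10 lowest against CD8 T cells, and the 10 with the most UMIs. The members and lists were chosen with earlier results of these data known. Python 3.11.15 with numpy 2.4.6, scipy 1.17.1, pandas 2.3.3 and matplotlib 3.10.9 was used, and edgeR 4.0.16 for TMM factors. The procedures were tested on simulated data. Libraries given an antibody to TGFβ were not analysed here.

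The libraries held 98174850 and 74117462 UMIs, of which 996687 and 851793 were in NK cells. The antibody library is titled only Activin and was read as the antibody group from the design text. Alternatives changed the definition of an NK cell, the filters, the scaling and the UMI minimum. A few genes are not reported here.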

Additional observations from a re-analysis of the deposited data

How the results depend on the processing

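No paired analysis was possible because there was 1 library for each treatment, so no replicate could be left out either. The log2 ratio of NK cell shares was above 0 in 10 of 10 settings, and was 1.27 among the 88 cells without a UMI of Trac, Trbc1 or Trbc2. Genes 2-fold higher and lower, 49 and 37, numbered 145 and 82 with 1 or more Ncr1 and Klrb1c UMIs, 25 and 16 of 1086 without those receptor chain UMIs, 202 and 160 with a minimum of 20 UMIs and 14 and 8 with one of 100. The lower count was 21 with at least 1 UMI of each receptor gene and 62 with the mean of per-cell CPM, and the higher count 26 without members over 2 times the median UMIs and 25 among members with no ILC1 marker UMI, where fewer genes reach 50 UMIs. On the genes with 50 UMIs in all members, 129 and 109 of 5486 passed there. With a minimum of 20 UMIs, 1706 genes were lower against CD8 T cells, and against T cells with NK receptors 109 were higher and 100 lower. Among the gene ratios followed, 136 moved past their counting interval without receptor chain UMIs and 72 without an ILC1 marker UMI. With 1 or more Ncr1 and Klrb1c UMIs 66 moved. Over 236 genes and 3518 values, 419 were of the opposite sign to the value reported, 400 of them for ratios under 2-fold, such as those of Gapdh and Klrg1, and 19 for ratios past 2-fold. These 19 log2 ratios were, with 1 or more UMIs, Ifitm1 0.34, Dcn -1.29 and Lyz2 -0.13. With at least 1 UMI of each receptor gene they were Dcn -1.44 and Gzmc 1.01. Without receptor chain UMIs they were Gsn -0.59, Cst3 -0.065 and Inpp4b -1.81. Without deep members they were Ube2c 1.65, Dcn -1.26 and Tgfbi 0.29. Dcn was at -1.06 without cells holding other lineages' genes and at -0.77 without the top cell. Without an ILC1 marker UMI they were Gsn -0.10, Cst3 -0.026, Inpp4b -0.064, Dcn -0.84, Lyz2 -2.97 and Gzmc 0.16. The settings without the top cell, without ILC1 marker UMIs and with other ILC1 marker limits were chosen after seeing the data. The cause of these changes was not tested. Intervals cover counting error, and animals cannot be told apart within a pool.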
